A study of Mus musculus with 8 samples.

Results

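Phosphatidylcholine synthesis and choline uptake was followed through 9 genes, Slc44a1, Slc44a2, Chka, Chkb, Pcyt1a, Pcyt1b, Chpt1, Cept1 and Pemt, in photoreceptor cells of mice labelled Lpcat1 heterozygous (HZ) or Lpcat1 KO. The genes were chosen by name, and every probe whose RefSeq accession belonged to one of them was taken, which gave 15 of the 56605 probes that were not controls. All 9 genes entered the comparison, out of 14840 genes tested, through 14 of these 15 probes. In the CDP-choline pathway, choline is taken up by transporters, phosphorylated by choline kinase, activated to CDP-choline by CTP-dependent phosphocholine cytidylyl transferase in the rate-limiting step, and joined to diacylglycerol by a cholinephosphotransferase. A separate route, best known from the liver, makes the same lipid by methylating phosphatidylethanolamine. Photoreceptors renew their phosphatidylcholine-rich disc membranes throughout life, and Lpcat1 acts on the lipid after its synthesis, by returning a saturated acyl chain to lysophosphatidylcholine.

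The cells came from the retinas of C57BL/6 mice at postnatal day 8 and were sorted magnetically by their surface CD73. Total RNA was hybridized to single-color SurePrint G3 mouse arrays, 4 labelled HZ and 4 labelled KO. According to the methods, the Lpcat1 KO line was on a C57BL6/N background and was crossed to C57BL6/J so that the animals used did not carry the rd8 allele of Crb1 in homozygous form, and the heterozygous animals, which still carry a disrupted Lpcat1 allele, stood as the controls. How many mice gave the RNA of an array was not stated, so that p-values measure the spread between these arrays, which may be technical. The 8 arrays lay on the same slide, with those labelled KO in row 1 and those labelled HZ in row 2, and row and genotype cannot be told apart. Each value below is the log2 of the background-corrected signal minus the 75th percentile of the same array, which lay between 882 and 1024 intensity units, and values are given in the order of the replicate numbers 1 to 4. An array had 59.5% to 63.8% of its probes well above background. Precision is limited by the number of arrays. The Lpcat1 probe gave -0.81, -0.95, -1.02 and -1.17 on HZ-labelled arrays and -0.97, -1.16, -1.11 and -0.85 on KO-labelled arrays. These ranges overlapped (difference -0.037, standard error 0.11, adjusted p = 0.930), so this probe did not separate the labels. Where it lies in relation to the deleted stretch was not analysed here.

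The arrays carried the signal of rod photoreceptors. All 19 rod markers were well above background on every array, with Nrl between 6.94 and 7.30, and the linear signals of the rod list, relative to the 75th percentile, summed to 1627, 1429, 1505 and 1758 on HZ-labelled arrays and 1599, 1404, 1375 and 1418 on KO-labelled arrays, led by Pde6g. Markers of other cells were present too. For the retinal pigment epithelium (RPE), 15 of 16 markers were tested and all 15 had lower means on KO-labelled arrays, by a median of -1.14, with 12 at an unadjusted p under 0.05 and 0 at an adjusted p under 0.05. Their summed signal, led by Dct, was 41.8, 16.9, 27.1 and 24.0 on HZ-labelled arrays and 15.5, 11.2, 13.5 and 8.36 on KO-labelled arrays, without overlap. The microglia list had higher means for 12 of 12 markers (median 0.78, 5 at an unadjusted p under 0.05), and its sum was 4.15, 4.61, 4.01 and 7.93 on HZ and 10.1, 7.75, 5.81 and 6.19 on KO arrays, where HZ replicate 4 overlapped the KO range. In such bulk samples fewer cells of a type and less RNA per cell cannot be told apart.

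Across all genes, limma called 0 of 14840 at an adjusted p under 0.05 and a fold change over 1.2, while 1381 were under an unadjusted p of 0.05, 862 higher (5.81%) and 519 lower (3.5%), and the methods' t-test, run here with equal variances, called 2 at the stricter setting. The methods name unpaired tests of 2 groups in general and not for the arrays. Of the 9 genes of phosphatidylcholine synthesis, 0 passed the stricter setting against 0% of all genes, 0 passed a fold change over 1.5 with an adjusted p under 0.5 against 1.46%, and 0 were under an unadjusted p of 0.05 against 9.31%. The arrays of the groups did not separate completely for any of the 9 genes, as they did for 8% of all genes. Probe by probe, 0 of the 14 tested were under an unadjusted p of 0.05 and 0 separated the groups, beside 8.17% and 6.33% of all tested probes. The mean was higher on KO-labelled arrays for 7 of the 9 and lower for Slc44a1 and Slc44a2, with a median difference of 0.082 beside 0.029 over all genes, of which 8434 were higher and 6406 lower. The 7 included Chkb and Pemt, which turned negative under other settings, and Pcyt1a, which did so with another background correction. The number of higher genes fell to 5 with another background correction, with the percentile taken over probes above background on all arrays, or without HZ replicate 3 or KO replicate 4. The median of 0.082 depended on single arrays too and was 0.0015 when HZ replicate 3 was left out, 0.022 when KO replicate 4 was, 0.030 when HZ replicate 4 was and 0.053 when KO replicate 2 was. It was 0.038 with normexp background correction and 0.052 with that percentile. For 7 of the 9 genes the 95% interval of the difference lay within a 1.5-fold change in either direction, 77.8% against 68.2% of all genes, and the exceptions were Slc44a1 and Pcyt1b.

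**Figure D1:**
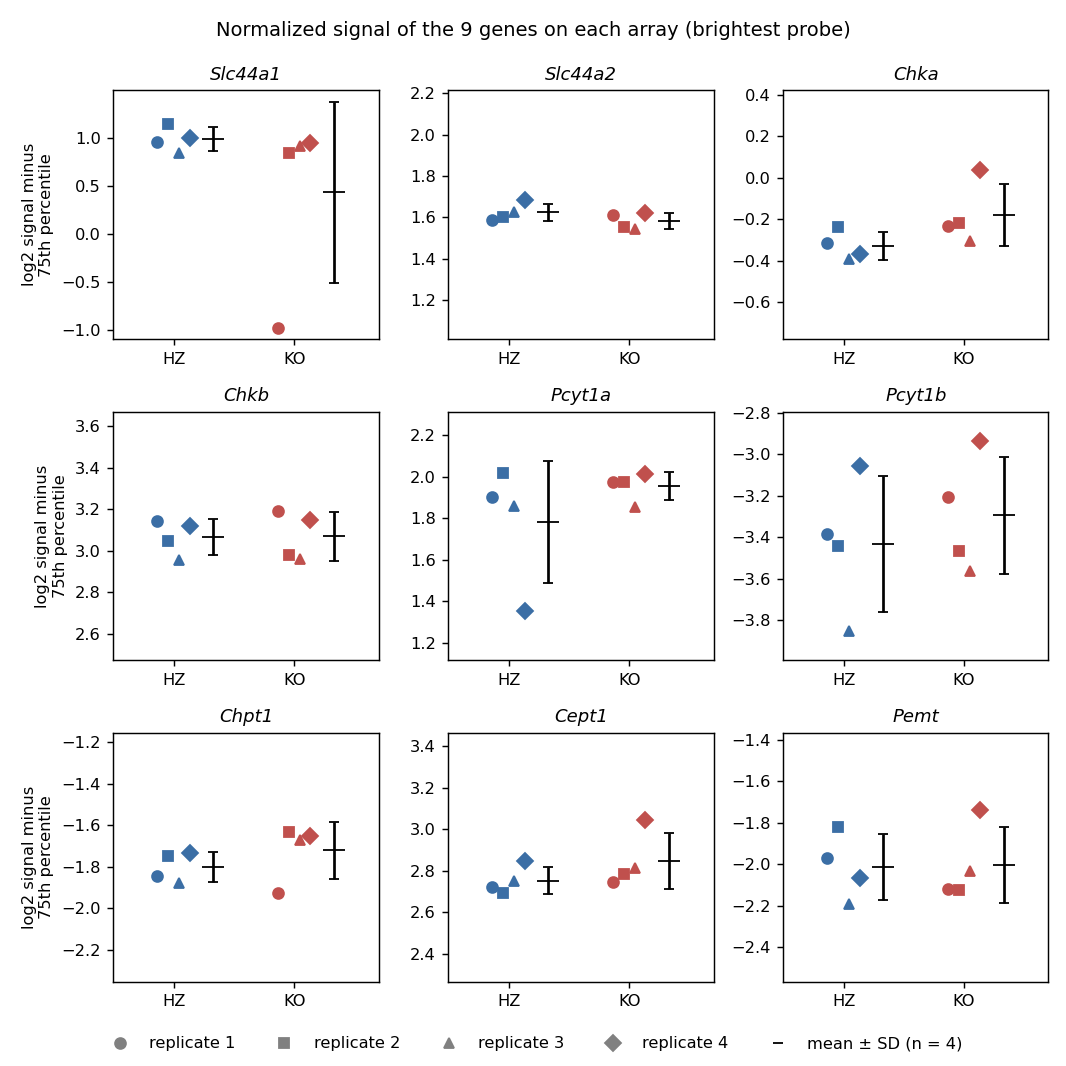
Log2 signal minus the array's 75th percentile for the brightest probe of each of the 9 genes, with a point for each array (4 HZ, 4 KO, symbols for replicate numbers) and the mean with its SD beside them, each panel on its own axis. Groups overlapped for every gene, and single arrays stood low for Slc44a1 (KO replicate 1, -0.98) and Pcyt1a (HZ replicate 4, 1.35).

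**Figure D2:**
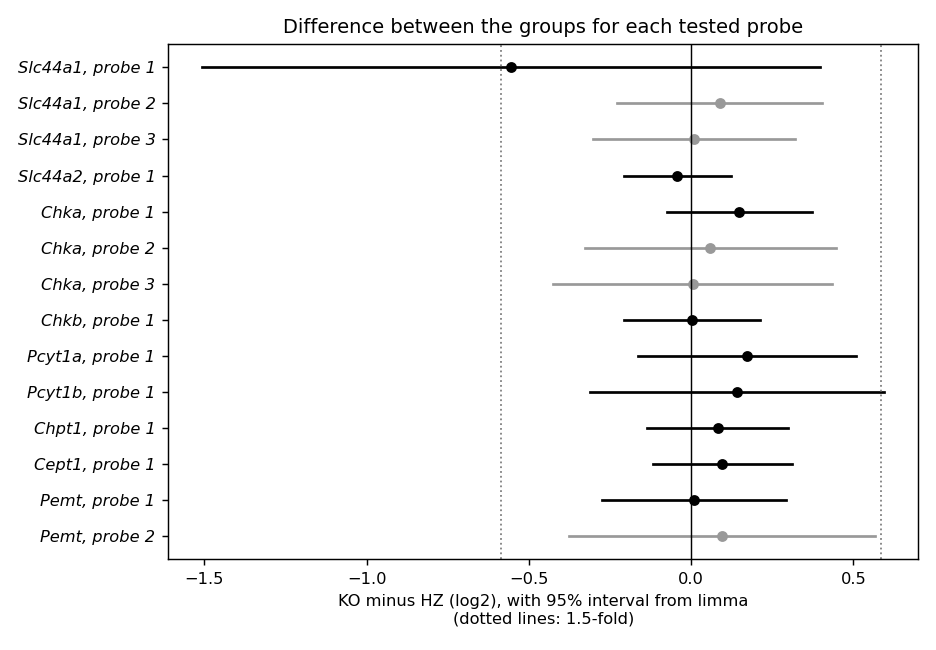
Difference of KO minus HZ (log2) with its 95% interval for the 14 tested probes, black for the brightest probe of a gene and gray for its other probes; dotted lines mark a 1.5-fold change. Every interval crosses 0, and that of the brightest Slc44a1 probe is the widest of the 14, from -1.51 to 0.40.

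Choline enters cells through choline transporter-like proteins, of which Slc44a1 is the best studied and Slc44a2 has also been placed in mitochondria. Slc44a2 gave 1.59, 1.60, 1.62 and 1.68 on HZ-labelled arrays and 1.61, 1.55, 1.54 and 1.62 on KO-labelled arrays. These 8 values lay close together, with an SD of 0.042 and 0.040, and the difference was -0.042 (standard error 0.071, adjusted p = 0.873), a fold of 0.971 with a 95% interval of 0.866 to 1.09. It lay between -0.055 and -0.023 with each array left out and between -0.073 and -0.026 under the other settings. The brightest of 3 Slc44a1 probes, A_52_P84901, gave 0.95, 1.15, 0.84 and 1.00 on HZ arrays and -0.98, 0.84, 0.92 and 0.95 on KO arrays. A single array, KO replicate 1, was therefore far below the other 7. It made the difference the largest in size among the 9 genes, -0.55, with a wide standard error of 0.41 (adjusted p = 0.734). Without KO replicate 1 the difference was -0.083. The other Slc44a1 probes did not share the low value: on the KO arrays A_55_P2048041 gave -0.13, -0.45, -0.33 and -0.18, and A_55_P2081790 gave -0.68, -0.81, -0.65 and -0.70. Their differences between the groups were 0.088 and 0.0093, and the mean over the 3 probes differed by -0.15 (standard error 0.15, adjusted p = 0.779).

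The surroundings of that spot were unusual on the same array. The local background beside it was 69 intensity units on KO replicate 1 and 28 to 33 on the other 7 arrays, or 2.42 times the array's median against 0.833 to 1.2 times for the other 119 values of a member's spot on an array. Signals of the neighboring spots, up to 4 rows and columns away, departed from the same spots' median over the other arrays with an SD of 2.71, against 0.180 to 0.827 at this position on the other 7 arrays. On KO replicate 1, 372 spots (0.627%) had a local background over 1.5 times the median, and the other arrays had 0 or 1 such spot. The scanner software had not marked the Slc44a1 spot as an outlier. With spots of raised local background left out, an alternative chosen after seeing the data, the Slc44a1 difference was -0.083.

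**Figure D3:**
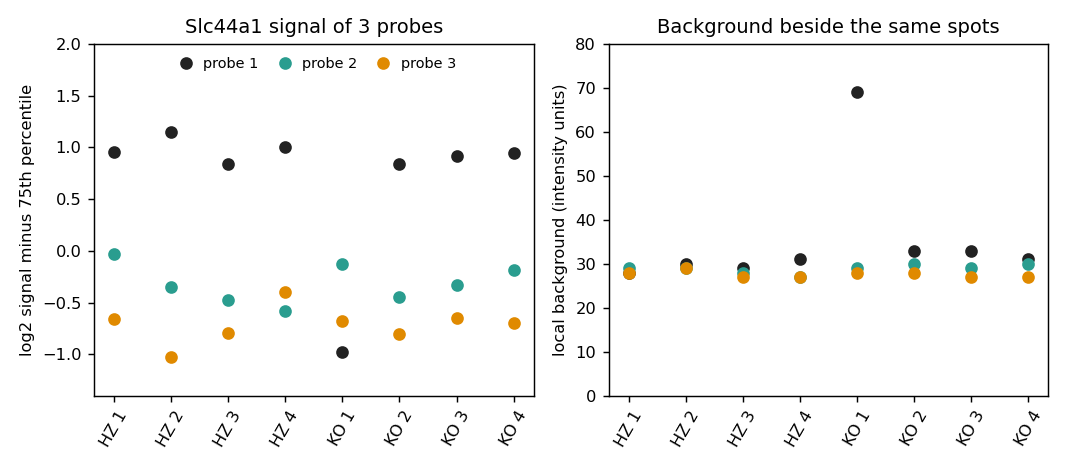
Left, log2 signal minus the 75th percentile of the 3 Slc44a1 probes on each array; right, the local background (intensity units) beside the same spots. The low value of probe 1 on KO replicate 1 (-0.98) coincides with a background of 69, while probes 2 and 3 lie within the range of the other arrays.

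Choline kinase, which traps choline in the cell as phosphocholine, is encoded by Chka and Chkb. Chkb, whose loss causes a muscular dystrophy in mice, gave 3.14, 3.05, 2.95 and 3.12 on HZ-labelled arrays and 3.19, 2.98, 2.96 and 3.15 on KO-labelled arrays. The groups covered nearly the same range, and the difference was 0.0024 (standard error 0.091, adjusted p = 0.995), with a fold between 0.866 and 1.16 at 95%. Chka, whose product is needed for embryonic development, gave -0.32, -0.24, -0.39 and -0.37 on HZ arrays and -0.23, -0.22, -0.31 and 0.037 on KO arrays with its brightest probe. Every KO array was above the HZ array with the same number, yet KO replicate 3 was below HZ replicate 2 and the groups overlapped. The difference of 0.15 (standard error 0.097, adjusted p = 0.708) corresponded to a fold of 1.11 with a 95% interval of 0.949 to 1.29. It was 0.076 without KO replicate 4, the array with the highest value. With normexp background correction it was 0.22, the only one of the settings run in which a gene of the 9 was under an unadjusted p of 0.05 (0.0419, adjusted p = 0.481). The other Chka probes differed by 0.059 and 0.0044, and the mean of the 3 probes by 0.071 (standard error 0.12).

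Phosphocholine cytidylyl transferase sets the rate of the pathway and is regulated by its binding to membranes. Pcyt1a encodes the widely expressed isoform, mutated in a human skeletal dysplasia with cone-rod dystrophy, and Pcyt1b the isoform known from brain and gonads. The starts of these genes differ in base composition, and the 250 bases upstream of the first RefSeq start of each (GRCm38.p6, plus strand) are shown to set the isoforms side by side, with capitals for the GC box GGGCGG, the CCAAT box CCAAT and the sterol regulatory element TCACNCCAC on either strand. The GC content is 71.6% for Pcyt1a at chr16:32430671-32430920 and 39.6% for Pcyt1b at chrX:93654613-93654862. Upstream of the other starts it is 67.6% and 64.0% for Pcyt1a and 53.6% for Pcyt1b, which lie closer together.
Pcyt1a: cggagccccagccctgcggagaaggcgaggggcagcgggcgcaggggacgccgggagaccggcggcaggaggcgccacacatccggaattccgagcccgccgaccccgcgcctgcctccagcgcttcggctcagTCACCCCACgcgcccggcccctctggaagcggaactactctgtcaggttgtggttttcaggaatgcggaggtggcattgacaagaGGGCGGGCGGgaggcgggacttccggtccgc
Pcyt1b: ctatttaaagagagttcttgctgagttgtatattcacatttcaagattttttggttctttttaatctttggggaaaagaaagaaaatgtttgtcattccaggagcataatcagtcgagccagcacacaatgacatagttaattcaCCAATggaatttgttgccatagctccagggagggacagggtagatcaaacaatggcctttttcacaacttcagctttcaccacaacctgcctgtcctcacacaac
The Pcyt1a stretch holds the sterol regulatory element letters and GC boxes, and the Pcyt1b stretch a CCAAT box. In windows of 300 bases, which add 50 bases downstream, the sterol regulatory element letters were in 2 of the 17 promoters of the 9 genes, both of them overlapping windows of Pcyt1a, and in 1.24% of all 32851 RefSeq promoters. A GC box was in 10 of the 17, belonging to 7 genes (35.7% of all promoters), and a CCAAT box in 8, also of 7 genes (37.4%). The photoreceptor factor Crx binds a core of TAATCC, which was in 1 window, that of Pemt (7.06%). TATAAA was in 1 window, that of Chkb (13.6%), and CACGTG in 0 (7.15%). Their median GC content was 63.3%, against 52.7% over all promoters. A match of letters is a description and not a bound site.

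Pcyt1a gave 1.90, 2.02, 1.86 and 1.35 on HZ-labelled arrays and 1.98, 1.97, 1.86 and 2.02 on KO-labelled arrays. All arrays but HZ replicate 4 lay between 1.86 and 2.02. The difference of 0.17 (standard error 0.15, adjusted p = 0.758) was 0.030 without HZ replicate 4 and -0.075 with normexp background correction. On HZ replicate 4 the software also called 458 spots non-uniform, where the other arrays had 2 to 25, and this array was the lowest of the 8 arrays for 26.4% of the genes, against 8.76% to 13% for the others. It was also the highest for 18% (3.58% to 21.6% for the others). Signals beside the Pcyt1a spot departed from those of the other arrays with an SD of 1.34 on HZ replicate 4 and 0.187 to 0.502 elsewhere. Beside the other spots of the 9 genes, this SD was 0.598 (a Chka spot) to 1.22 (a Chpt1 spot) on HZ replicate 4. A raised SD on this array was thus not particular to the Pcyt1a spot, though it was highest there. The median departure beside the Pcyt1a spot was -0.35 on HZ replicate 4 and -0.12 to 0.20 on the other arrays. Beside the other spots of the 9 genes on HZ replicate 4 it was -0.11 to 0.30. The part of these surroundings in the low Pcyt1a value was not tested. The genes with the most similar profile over the 8 arrays, among 5970 genes that varied at least as much, were Apbb3 (Pearson's r 0.995), Coq3 (0.991) and Prkaca (0.989). Each of the 3 was lowest on HZ replicate 4, which follows from their choice by likeness to Pcyt1a. Apbb3 gave 3.16, 3.24, 3.05 and 2.35 on the HZ arrays. Over the 7 arrays without HZ replicate 4 r was 0.950, 0.925 and 0.865. These values describe the arrays, which share a slide, and nothing is drawn from them about shared control. Pcyt1b gave -3.39, -3.44, -3.85 and -3.06 on HZ arrays and -3.21, -3.47, -3.56 and -2.94 on KO arrays. It was well above background on all 8 arrays, and its spread within a group (SD 0.33 and 0.28) was larger than the difference of 0.14 (standard error 0.20, adjusted p = 0.847). With the replicate number as a block the difference was the same, with a smaller standard error of 0.084 (limma adjusted p = 0.522). That difference shrank to 0.0015 if HZ replicate 3 was dropped and to 0.022 if KO replicate 4 was, and stood at 0.27 in the absence of HZ replicate 4 and 0.23 in that of KO replicate 3. It was 0.080 with normexp and 0.23 with quantile normalization.

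The last step joins CDP-choline to diacylglycerol. Cept1, which accepts both CDP-choline and CDP-ethanolamine, gave 2.72, 2.69, 2.75 and 2.84 on HZ-labelled arrays and 2.75, 2.79, 2.81 and 3.04 on KO-labelled arrays. As with Chka, each KO array was above its HZ counterpart while the groups overlapped. The difference was 0.096 (standard error 0.093, adjusted p = 0.782), a fold of 1.07 with a 95% interval of 0.922 to 1.24, and 0.030 without KO replicate 4 and 0.038 with normexp. Chpt1, the cholinephosphotransferase of the Golgi, gave -1.84, -1.75, -1.88 and -1.73 on HZ arrays and -1.92, -1.63, -1.67 and -1.65 on KO arrays. KO replicates 2 to 4 were above all HZ arrays, and KO replicate 1 was below all of them. The difference was 0.082 (standard error 0.094, adjusted p = 0.813), 0.15 without KO replicate 1 and 0.053 when KO replicate 2 was left out. It was 0.15 with normexp, 0.052 with the percentile over probes above background on all arrays and 0.17 without both HZ replicate 4 and KO replicate 1. A second Chpt1 probe was above background on 1 of the 8 arrays and was not tested.

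Pemt methylates phosphatidylethanolamine to phosphatidylcholine and is expressed chiefly in the liver. Its brighter probe was well above background on all 8 arrays, at -1.97, -1.82, -2.19 and -2.07 on HZ-labelled arrays and -2.12, -2.13, -2.03 and -1.74 on KO-labelled arrays. The order of the groups changed from number to number, lower on KO for replicates 1 and 2 and higher for 3 and 4. The difference was 0.0092 (standard error 0.12, adjusted p = 0.986), with a fold between 0.827 and 1.23 at 95%, and the second probe differed by 0.096 (standard error 0.21).

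Arrays with the same replicate number deviated together, and the differences were therefore also taken by number. Chka and Cept1 were higher on the KO array in 4 of 4 pairs, which is 2 of the 9 genes (22.2%) beside 18.7% of all genes, and 0 of the 9 were lower in 4 of 4 pairs beside 9.85%. An exact two-sided test over 4 pairs cannot reach a p under 0.05. The Chka differences were 0.082, 0.024, 0.085 and 0.40, and those of Cept1 0.028, 0.094, 0.061 and 0.20. At the other 2 Chka probes pair 4 ran the other way (-0.36 and -0.25). In both genes the pair numbered 4 was the largest at the brightest probe, as it also was for Pcyt1a (0.66) and Pemt (0.33). With the replicate number as a block, 0 of the 9 genes passed an unadjusted p of 0.05, as without it, while the count over all genes went from 1381 to 1859. Slc44a1 ranged from -1.93 in pair 1 to 0.075 in pair 3, and the pairs of Slc44a2, Chkb, Pcyt1b and Chpt1 lay between -0.082 and 0.29.

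**Figure D4:**
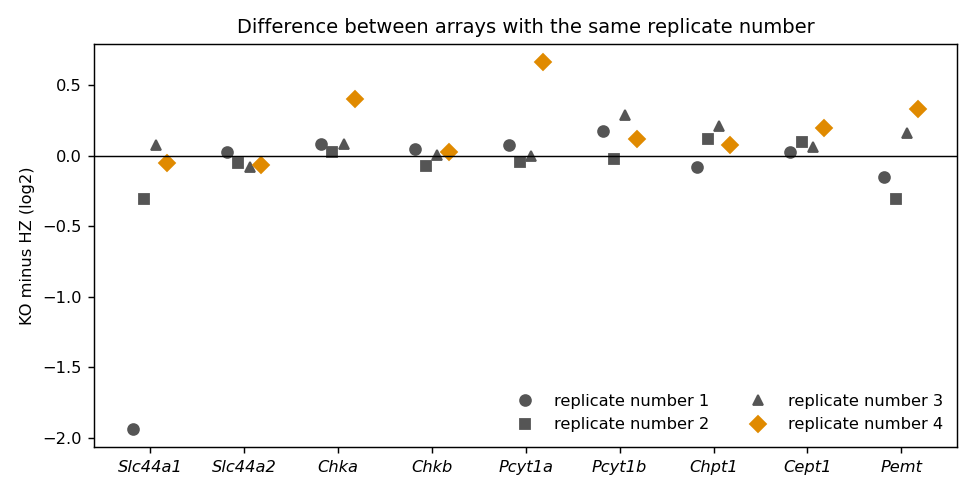
Difference of KO minus HZ (log2) between arrays with the same replicate number for the 9 genes, with pair 4 in orange. Points of Chka and Cept1 lie above 0 in all 4 pairs, and the lowest point is Slc44a1 in pair 1 (-1.93).

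The genes around this pathway were read from 7 lists of 59 genes, of which 47 were tested. The means were higher on KO-labelled arrays for 26 and lower for 21, with a median of 0.028 beside 0.029 over all genes. With each array left out these medians lay between 0.0060 and 0.058 and between 0.019 and 0.057. An unadjusted p under 0.05 was reached by 2 higher and 3 lower genes, 10.6% of the 47 beside 9.31% of all genes, and 0 reached an adjusted p under 0.05. Groups did not overlap for 2 higher and 4 lower genes, where 5.48% and 2.52% of all genes did so. The share under an unadjusted p of 0.05 was thus close to that of all genes. By replicate number, genes lower in 4 of 4 pairs made up 0% to 50% of a list, beside 9.85% of all genes. The share was 50% (3 of 6) for lysophospholipid acyltransferases and 40% (2 of 5) for other choline transporters and choline oxidation. For the supply and use of diacylglycerol it was 33.3% (3 of 9). Genes higher in 4 of 4 pairs made up 0% to 37.5% of a list, beside 18.7%, with 37.5% (3 of 8) for phosphatidylcholine breakdown.

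Among other choline transporters and the enzymes of choline oxidation, 5 of 12 genes were tested and 4 were lower. Slc44a5, a further member of the transporter-like family, gave -1.68, -1.36, -1.65 and -1.86 on HZ arrays and -2.05, -2.02, -1.95 and -2.32 on KO arrays. All KO values were below all HZ values (difference -0.44, standard error 0.13, adjusted p = 0.474). Flvcr2, a choline transporter of the blood-brain barrier, gave -1.50, -3.43, -2.16 and -2.00 on HZ arrays and -3.38, -3.50, -3.88 and -4.89 on KO arrays (difference -1.64, standard error 0.47, adjusted p = 0.448, and -0.92 with normexp background correction). It was highest on HZ replicate 1 and lowest on KO replicate 4, the arrays with the highest and the lowest sum of RPE markers. Mfsd2a, which carries lysophosphatidylcholine with docosahexaenoic acid into the eye and brain, showed the same extremes, at -3.39, -4.08, -3.99 and -3.89 on HZ arrays and -4.46, -4.58, -4.81 and -5.05 on KO arrays. Its groups did not overlap (difference -0.88, standard error 0.19, adjusted p = 0.363), and the difference was -0.17 with normexp background correction, where the unadjusted limma p was 0.0844. It was the only lower one of 6 genes of phosphatidylcholine transfer, where Abcb4 stood at 0.36, but at 0.15 without HZ replicate 4 and 0.54 without HZ replicate 2. The part of the RPE and microglia markers in these differences was not tested.

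The branch through ethanolamine and serine had 6 of 7 tested genes higher, beside 56.8% of all genes. Its median difference of 0.028 was close to the 0.029 over all genes. Etnk1, an ethanolamine kinase, gave 0.064, -0.015, 0.17 and -0.54 on HZ arrays and 0.29, 0.24, 0.26 and 0.40 on KO arrays (difference 0.38, standard error 0.15, adjusted p = 0.591). The KO arrays were above all HZ arrays, and HZ replicate 4 was again the lowest; without it the difference was 0.23. The unadjusted limma p of Etnk1 was 0.0378, and 0.0646 with the replicate number as a block. It was also over 0.05 with the methods' t-test, without the filter on dim probes, and when HZ replicate 2 or any KO array was left out. With normexp background correction the difference was 0.19 and this p 0.194. A second, dimmer Etnk1 probe went the other way (-0.46, standard error 0.41), with -2.45 on HZ replicate 4 and -4.15 to -4.04 on the other HZ arrays. By number its differences were 0.48, 0.044, -0.019 and -2.34, so the direction depended on HZ replicate 4. Ptdss2, a phosphatidylserine synthase, differed by 0.16, or 0.10 when HZ replicate 3 was left out. The list named for phosphatidylcholine breakdown to choline, which also holds the sphingomyelinase Smpd1, had 7 of 8 tested genes higher. The largest differences were those of the phospholipase Pld2 (0.30, standard error 0.19, and 0.14 without HZ replicate 1) and the lysophospholipase Pnpla7. Pnpla7 gave -0.15, -0.18, -0.050 and -0.033 on HZ arrays and 0.14, 0.12, 0.36 and 0.17 on KO arrays. Its groups did not overlap and it was higher in 4 of 4 pairs (difference 0.30, standard error 0.088, adjusted p = 0.465).

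In the list on the supply and use of diacylglycerol 3 of 9 genes were higher and 6 lower. The largest differences were those of the phosphatidate phosphatase Plpp1 (-0.27, standard error 0.14, and -0.15 when HZ replicate 4 was left out) and of Dgat1, an acyltransferase that uses diacylglycerol (0.25, standard error 0.16, and 0.13 when HZ replicate 3 was left out). Both changed sign with normexp background correction. The methyl donor list had 3 of 6 genes higher, among them the methionine adenosyltransferase Mat2a (0.19, -0.16 with normexp, 0.12 when KO replicate 4 was left out and -0.10 at a second probe), and Gnmt, a glycine methyltransferase, was lower (-0.22, standard error 0.097) without overlap of the groups, the value of HZ replicate 4 being left out of the fit as an outlier spot. Gnmt stood at -0.60 (standard error 0.34) with the authors' processed values and at -0.12 with normexp. Of 6 lysophospholipid acyltransferases 5 were lower, Mboat2 by the most (-0.90, standard error 0.41, adjusted p = 0.623). It was -0.57 without KO replicate 4 and -1.25 without KO replicate 2, and a second Mboat2 probe differed by 0.0019 (standard error 0.18). Lpgat1 followed (-0.15, standard error 0.085, and -0.093 when KO replicate 2 was left out), without overlap of the groups at its brightest probe, while its second probe differed by -0.013 and its groups overlapped. With the replicate number as a block, the unadjusted limma p of Plpp1 was 0.0416 (0.0877 without it) and that of Mboat2 0.0181 (0.0611). That of Mboat2 was also 0.00379 with normexp, 0.0408 with trend and robust and 0.00571 without KO replicate 2. For Gnmt it was 0.0394 with quantile normalization, 0.0422 with the percentile over probes above background on all arrays and 0.0485 without HZ replicate 4. The methods' t-test gave Gnmt a p of 0.0248. The limma p of Pld2 was 0.0393 with normexp, and that of Mat2a 0.0424 without KO replicate 1.

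**Figure D5:**
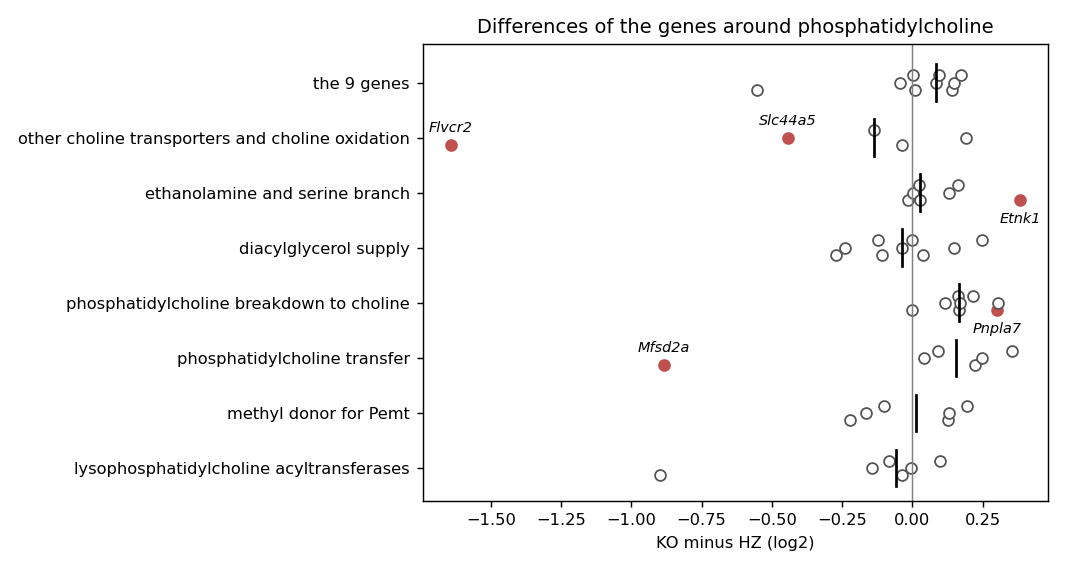
Difference of KO minus HZ (log2) of each tested gene, by its brightest probe, for the 9 genes and the 7 surrounding lists, with the median of a list as a black bar. Filled points are the 5 genes under an unadjusted p of 0.05, and none is among the 9 genes.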

How the data were processed

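Agilent Feature Extraction 10.7.1.1 output was deposited by the authors for each array, with a background-corrected signal intensity for every spot. A table of log2 values that the authors had shifted by the 75 percentile in GeneSpring, and that turned out to be centered on each probe's median, was deposited too and served as an alternative. Its columns followed the scanner values (r of 0.999 or more) and had medians of -0.065, -0.012, -0.027 and 0.20 for HZ and -0.010, 0.061, -0.019 and 0.033 for KO.

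Here the log2 intensity of each spot was set against the array's 75th percentile over 59305 spots other than controls, outlier spots were dropped, and repeated spots were averaged by probe. Testing required at least 4 arrays with a signal well above background and at least 3 values in each group, which left 34280 probes. Accessions were matched to symbols with a RefSeq table (GRCm38.p6), successfully for 32994 of 56605 probes. The two-sided comparison used limma 3.58.1 (lmFit, eBayes) under R 4.3.3 with the data.table package, version 1.17.8, and Benjamini-Hochberg adjustment over all tested probes, and was tested on simulated data. The probe with the highest mean stands for a gene. Promoters are those of RefSeq (GRCm38.p6), read with pandas 2.3.3, and matplotlib 3.10.9 drew the plots.

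The members and lists were chosen with earlier results of these data known. Named are the 9 genes, Lpcat1, the 2 genes of each surrounding list with the largest difference and those under an unadjusted p of 0.05, leading and defining markers, and the 3 genes most like Pcyt1a. Some of these markers are not reported here. Replicate numbers, taken from the labels, were checked as a pairing. Same-numbered arrays shared their deviations from the group mean (r of 0.165 to 0.337, over 0.1 in 4 of 4 pairs), unlike arrays of different number (-0.339 to 0.119), so the numbers pair the arrays. Pairs of arrays had r of 0.974 to 0.992 across probes, and 0 pairs were identical.

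As alternatives, normalization was by quantiles or by a percentile over probes above background on all arrays, background correction by normexp (offset 50, median signal), and the filter on dim probes was dropped or made stricter. The test was the methods' t-test, eBayes with trend and robust, or limma with the replicate number as a block. The values were the authors' own or the mean of a gene's probes, and each array was left out in turn. Leaving out HZ replicate 4 with KO replicate 1, and spots in a raised local background, were added after seeing the data.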

Additional observations from a re-analysis of the deposited data

Results flagged for a closer look

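Of 51 groups of 4 arrays examined, 3 held a value far from the other 3 by Dixon's criterion, where chance gives about 1 in 20 groups, or 2.55. Slc44a1 stood at -0.98 on KO replicate 1, with 0.84 to 0.95 on the other KO-labelled arrays. Chpt1 stood at -1.92 on the same array, with -1.67 to -1.63 on the others. Plpp1 stood at -0.034 on HZ replicate 4, with -0.59 to -0.50 on the other HZ-labelled arrays.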

How the results depend on the processing

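Under the settings run, 0 of the 9 genes reached an adjusted p under 0.05, with 0.437 as the lowest. Their count at an unadjusted p under 0.05 went from 0 to 1 with normexp background correction, which also moved the genes higher in all 4 pairs from 2 to 1. The count of all genes at an adjusted p under 0.05 and a fold over 1.2 was 0, but 1 with quantile normalization, 14 with normexp, 2 with the methods' t-test and 2 with trend and robust. At an adjusted p under 0.5 and a fold over 1.5 it was 217, but 22 without a filter on dim probes, 577 with the replicate number as a block, 113 without both HZ replicate 4 and KO replicate 1, and 0 to 702 with each array left out, highest without HZ replicate 2. The loss of HZ replicate 1 or 3, or of KO replicate 3 or 4, left 0 genes, that of KO replicate 2 left 8 and that of KO replicate 1 left 118. Among the 9 genes the block changed no call. Among the other named genes it ended the unadjusted call of Etnk1 and brought the unadjusted limma p of Plpp1 to 0.0416 and that of Mboat2 to 0.0181.

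Chkb changed sign with quantile normalization (-0.042), normexp (-0.0018), the percentile over probes above background on all arrays (-0.028) and without both arrays (-0.020), and lay between -0.038 and 0.038 with each array left out. Pemt became -0.022 with that percentile, 0.026 with the authors' processed values, 0.049 with quantile normalization and 0.12 with normexp. With each array left out it lay between -0.079 and 0.074. With normexp, Pcyt1a became -0.075, Lpcat1 0.0049, Plpp1 0.0024, Dgat1 -0.12 and Mat2a -0.16. Lpcat1 lay between -0.097 and 0.022 with each array left out. The cause was not tested. Of 687 values under an alternative, 19 differences of single genes changed sign and 16 counts moved by over 1.5 times. The median of the other lists, 0.028, became 0.0053 with quantile normalization, 0.044 with the authors' processed values, -0.0029 with that percentile and -0.012 without both arrays. The median over all genes, 0.029, became 0.00096 without the filter on dim probes, 0.044 with the authors' processed values and -0.0020 with that percentile.

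With 4 arrays a group, the 95% interval of the 9 genes reached 0.22 (log2) to either side in the median. Slide row and genotype cannot be told apart. The normexp setting lacks the software's detrending. RNA levels say nothing of enzyme activity or lipid amounts.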

Other observations

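The remaining marker lists were read in the same way. The cone list had higher means on KO-labelled arrays for 9 of 10 markers (median 0.15, 0 at an unadjusted p under 0.05), and its sum, led by Gngt2, was 139, 204, 204 and 129 on HZ arrays and 175, 228, 180.0 and 188 on KO arrays. Müller glia markers were lower for 8 of 10 (median -0.20, 2 at an unadjusted p under 0.05), while Apoe (0.019) and Glul (0.071) were slightly higher. Glul lay between 1.03 and 1.72 over the 8 arrays. The sum of the Müller list, in which Apoe was the brightest, was 31.5, 38.5, 32.0 and 30.4 on HZ and 27.5, 37.4, 25.5 and 20.6 on KO arrays. Bipolar cell markers were lower for 8 of 10 (median -0.35, 1 at an unadjusted p under 0.05). Otx2, which photoreceptors also express, was higher (0.12) without overlap of the groups. The sum of the bipolar list, in which Otx2 was the brightest, was 194, 206, 239 and 226 on HZ arrays and 212, 206, 194 and 189.9 on KO arrays. Rlbp1 stands in the RPE and Müller lists and Trpm1 in the RPE and bipolar lists.

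Of the amacrine, horizontal and ganglion cell markers 6 of 15 were tested, 4 of them higher, and Gad1, Nefl, Pou4f2, Rbpms and Sncg were not well above background on any array. Vascular markers were higher for 3 of 6 tested genes, with Cdh5, Tek and Tie1 not above background and Pecam1 between -3.16 and -2.31. Of the red blood cell markers the 2 tested were higher (median 1.61, both at an unadjusted p under 0.05). Their sum, led by Hba-a1, was 0.35, 0.15, 0.16 and 0.16 on HZ arrays and 1.25, 0.39, 0.21 and 0.70 on KO arrays, where Alas2 was not above background. Rod markers were lower for 15 of 19, with a median of -0.11 and 1 at an unadjusted p under 0.05.

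Among themselves, the 9 genes gave 36 pairs of profiles over the 8 arrays, with Pearson's r from -0.638 to 0.803 and a median of 0.286, and 23 pairs were positive. Chkb and Pcyt1b had the highest r, 0.803. On deviations from the group means Chpt1 and Slc44a1 (0.919) and Chka and Pemt (0.867) were above them (0.828), KO replicate 1 being the lowest array of both Chpt1 and Slc44a1. Chkb and Pcyt1b both were higher on replicates 1 and 4 than on replicate 3 in each group. Pcyt1a and Slc44a2 had the lowest, at -0.638. The linear signals of the 9 genes summed to 25.5, 25.6, 24.3 and 25.1 on HZ arrays and 24.8, 24.9, 24.7 and 27.9 on KO arrays, with KO replicate 4 the highest.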
